A study of Mus musculus with 24 samples.

Results

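Loss of Smarcad1 was described in intestinal stem cells (ISC) sorted from the small intestinal crypt of C57BL/6 Lgr5-GFP mice by high GFP. The genes were those that reached a log2 value of 0 in KO ISC, WT ISC or both, which held for 73 of the 82 genes of the 4 deposited tables. Each table gave the genes that the authors called between KO and WT in 1 sorted population at an FDR limit of 0.1, with a group mean for every population, so a gene called anywhere also has its ISC values. Of the 73 genes, 41 were in the table of colonocytes (CO) alone. The ISC table listed 7 genes, or 8.54% of the 82, and all 7 were among the 73.

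The KO and WT ISC groups held 3 libraries each, of 24 libraries in 8 groups. Genotypes were given as Vil-Cre mediated KO, which was Smarcad1 fl/fl with a Villin-cre transgene, active in the intestinal epithelium, and wild type, and whether WT mice carried the transgene was not stated. The GFP came from a knock-in at Lgr5 (Lgr5-EGFP-IRES-creERT2), so all stem cells, KO and WT, came from mice that carry a creERT2 and an altered Lgr5 allele. The floxed mice came from a single targeted line, and the age of the sorted animals was not given. Between 1000 and 80000 cells were sorted per ISC library on GFP and DAPI alone, without the Epcam, CD31 and CD45 staining used for absorptive enterocytes (AE) and CO, and transit amplifying cells (TA) were the cells with medium GFP. All values below are the authors' means over the libraries of a group, on the log2 scale and normalised to total reads. Values per library were not analysed here, so no SD, test or depth could be given. A difference is KO minus WT. The words rose and fell are kept for the 7 genes of the ISC table, and 2-fold means a log2 difference of at least 1.

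Smarcad1 is a SNF2-type ATPase that moves nucleosomes and helps to maintain heterochromatin when DNA is replicated. Stem cells at the crypt base express the Wnt target Lgr5, divide throughout life and renew the epithelium. Their daughters pass through the transit amplifying zone and become absorptive enterocytes on the villus, or secretory cells such as the Paneth cells that lie between the stem cells.

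The deletion removes exons 12, 13 and 14 of Smarcad1 (ENSMUSG00000029920, chromosome 6 from 65042583 to 65116061, plus strand, GRCm38). They are shown because they are the sequence lost from KO transcripts. They lie at chr6:65092495-65092594, chr6:65094131-65094190 and chr6:65094290-65094365 on the plus strand of the GENCODE M21 principal transcript and are coding over their whole length.
Smarcad1 exon 12: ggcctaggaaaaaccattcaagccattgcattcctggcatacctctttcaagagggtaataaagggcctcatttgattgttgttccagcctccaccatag
Smarcad1 exon 13: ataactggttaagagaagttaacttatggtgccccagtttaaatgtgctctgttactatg
Smarcad1 exon 14: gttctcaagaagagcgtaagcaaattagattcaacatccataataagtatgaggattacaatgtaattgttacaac
The 3 exons hold 100, 60 and 76 nucleotides. Their sum of 236 leaves a remainder of 2 on division by 3, so the exons that follow are joined out of frame. They are 236 of the 5168 nucleotides of a transcript with 24 exons, and most reads over the gene cannot show their loss. Smarcad1 was 4.85 in KO ISC and 5.62 in WT ISC, a difference of -0.77 that the ISC table did not list. The study itself measured reads over exons 12 to 14 in these sorted populations. It also reported that Smarcad1 protein could not be detected after the deletion in several cell types. Neither result was analysed here.

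The sort was checked against marker genes. Lgr5 was not among the 82 genes, so its level was not analysed here. Of 10 stem cell markers, 2 had values. Ascl2, a transcription factor of crypt base stem cells, was 6.05 in WT ISC, 4.24 in WT TA and -0.18 in WT AE, so it was highest in the sorted stem cells. It was 5.60 in KO ISC, a difference of -0.45. Fzd5, a Wnt receptor, was 7.43 in WT ISC, 8.10 in WT TA and 7.11 in WT AE, so it was higher in transit amplifying cells than in the sorted stem cells. It was 7.40 in KO ISC, with 16.4% of its 50-mers shared with other transcripts. The summed level of both genes was 7.90 in WT ISC and 8.19 in WT TA, so the label of the sort rests on Ascl2 alone here. Markers of other cells were present as well. Of 15 Paneth and goblet cell markers, 3 had values (Lyz1, Itln1 and Spink4), and their summed level was 11.9 in KO ISC and 10.5 in WT ISC. Of 16 enterocyte markers, 6 reached a log2 value of 0 (Mep1a, Ces2e, Cyp2c65, Trf, Slc9a2 and Clic5). Their summed level was 8.65 against 7.95. Mal, a further enterocyte marker with values, was -4.26 in KO ISC and -3.67 in WT ISC, so it was lower in KO. Trf was 3.25 in WT ISC and 2.68 in WT AE, so it was not higher in enterocytes here. Of 8 immune cell markers, 3 had values (Cd74, Cd244 and Ptpn22), with a summed level of 8.88 against 8.67. Cd74 alone was 8.85 and 8.67, so this sum says little of Cd244 and Ptpn22, which differed by 3.53 and 1.53. Pxdn was the single marker of stroma and endothelium, of 6, with a value of at least 0. None of 5 tuft and enteroendocrine markers was among the 82 genes. The defining genes of these lists that are not among the 82, such as Ptprc, Pecam1 and Muc2, were not analysed here. The part of such cells in the differences below was not tested, and in bulk samples more cells of a type and more RNA per cell cannot be told apart.

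Across the 73 genes the differences leaned towards higher values in KO ISC. Of the 73, 56 were higher in KO (76.7%) and 17 lower, with a median difference of 0.42 and quartiles of 0.07 and 1.02. At least 2-fold higher in KO were 19 genes (26.0%), and at least 2-fold lower were 4 genes (5.48%). The range ran from -2.59 for Plcd3 to 4.69 for Bglap3, and 33 genes lay within 0.5 of 0. Centred on the median of 0.42, 36 genes were higher and 36 lower, with 15 and 8 past 2-fold, so any uncentred difference between 0 and 0.42 lies below the typical gene. A gene that entered through its KO value alone had to be higher in KO, and 7 of the 73 did so. Plcd3 was the 1 gene that entered through its WT value alone, so it had to be lower in KO. With both values at least 0, 49 of 65 genes were higher in KO and 12 were at least 2-fold higher, with a median of 0.31. Because the genes were picked by significance in some population, these shares say nothing of the rest of the genome.

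**Figure D1:**
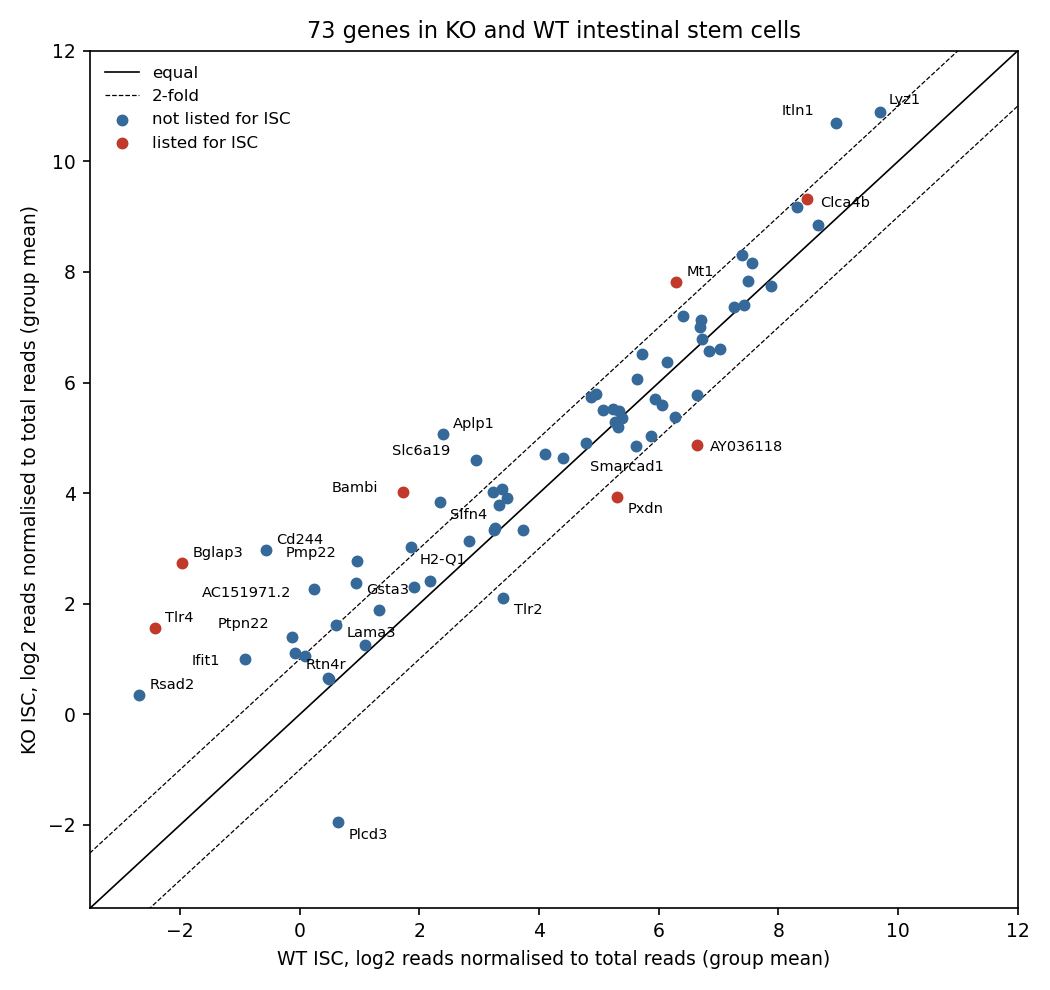
Group mean in KO ISC (vertical axis, log2 reads normalised to total reads) against WT ISC (horizontal axis, same unit) for 73 genes. Red points are the 7 genes the ISC table listed, the solid line marks equal values and the dashed lines a 2-fold difference. Above the upper dashed line lie 19 genes, most at low WT values, and below the lower line lie Plcd3, AY036118, Pxdn and Tlr2.

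Compared per kilobase of merged exon, Lyz1, Itln1 and Spink4 took the top 3 ranks among the 73 genes in WT ISC and again in KO ISC. Cd74 ranked 4 and Clca4b 5 in both. Mt1 ranked 7 in WT and 6 in KO. Among the genes that moved furthest in this order, Aplp1 went from rank 51 in WT to 27 in KO, and Pxdn from rank 37 to 58.

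Of the 7 genes listed for ISC, 5 rose in KO and 2 fell. Mt1 encodes metallothionein 1, a small cysteine-rich protein that binds zinc and copper (chromosome 8, 94179082 to 94180327). It was 7.82 in KO ISC and 6.29 in WT ISC, a 2.89-fold rise. Bambi encodes a pseudoreceptor that dampens BMP and TGF-beta signalling (chromosome 18, 3507957 to 3516404). It was 4.01 in KO and 1.72 in WT, a 4.90-fold rise. Clca4b belongs to the family of calcium-activated chloride channel regulators (chromosome 3, 144910921 to 144932529). It was 9.32 in KO and 8.48 in WT, and its difference of 0.83 was the smallest of the 7. Of its 50-mers, 24.8% also occur in other transcripts, most often of Clca4a, so its reads are uncertain.

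Bglap3 and Tlr4 rose from WT values under 0. Bglap3 belongs to the osteocalcin family, bone matrix proteins made by osteoblasts (chromosome 3, 88368616 to 88372743). It was 2.73 in KO ISC and -1.96 in WT ISC, and the difference of 4.69 became 2.60 with a pseudocount of 1 on the linear scale. It shares 11.5% of its 50-mers with other transcripts, most often of Bglap2. Tlr4, the receptor for bacterial lipopolysaccharide (chromosome 4, 66827584 to 66930284), was 1.56 in KO and -2.42 in WT, and its difference of 3.98 became 1.73 with that pseudocount.

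Pxdn and AY036118 fell. Pxdn encodes peroxidasin, an enzyme that crosslinks collagen IV in basement membranes (chromosome 12, 29937608 to 30017658). It was 3.94 in KO ISC and 5.31 in WT ISC, a difference of -1.37. AY036118, a lincRNA (chromosome 17, 39847113 to 39848035), was 4.87 in KO and 6.64 in WT, a difference of -1.77. Every 50-mer of AY036118 also occurs in other annotated transcripts, and another gene covers its exons on the opposite strand, so these reads cannot be assigned to it. The gene lies beside ribosomal RNA sequence, and the part of ribosomal reads in this difference was not tested.

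Listing did not follow the size of the difference. Among the 66 genes that the ISC table did not list, 25 differed by at least as much as Clca4b. Of the 19 genes at least 2-fold higher, 4 were listed and 15 were not, and 7 of the 19 had WT ISC values under 0. With the pseudocount, 13 of the 19 stayed past 2-fold.

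The sequence upstream of Mt1 is shown because metal response elements, the sites of the zinc sensor MTF1, are a known feature of metallothionein promoters. It runs from 250 bases before the RefSeq start to 15 bases after it (chr8:94178839-94179103, plus strand, GRCm38.p6). Capitals mark matches to TGCACNC or TGCGCNC, searched on both strands.
Mt1: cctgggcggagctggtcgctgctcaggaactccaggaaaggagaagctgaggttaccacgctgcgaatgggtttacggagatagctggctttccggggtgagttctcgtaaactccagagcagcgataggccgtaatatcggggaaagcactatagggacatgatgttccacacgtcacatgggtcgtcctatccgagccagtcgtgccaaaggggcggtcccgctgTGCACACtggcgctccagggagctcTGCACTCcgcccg
The whole window of 300 bases held 3 matches, of which 2 are printed and 1 lies further downstream. Of the 2 printed, only 1 lies before the RefSeq start. A match was present in 25.7% of 32851 RefSeq windows of the same length and in 28.4% of 67 windows of the 54 genes of the 73 that had one. Such a match was thus about as frequent in the windows of these genes as in all windows. TATAAA was present in 13.6% of all windows and 17.9% of the 67, but not in that of Mt1. CACGTG was present in 7.15% and 2.99%.

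Genes of innate sensing, interferon response and antigen presentation included wide differences in both directions, most of them in genes that were under 0 in WT ISC. The list named 18 genes, of which 15 were among the 73. Of the 15, 11 were higher in KO ISC and 4 lower, 7 were at least 2-fold higher and 1 at least 2-fold lower, beside 26.0% and 5.48% over all 73. Their median was 0.79, against 0.42 over the 73. However, 5 of the 7 past 2-fold (Tlr4, Rsad2, Ifit1, Cd244 and Ptpn22) reached the value limit through KO alone and so had to be higher in KO. They are 5 of the 7 such genes among the 73. Among the 10 with both values at least 0, 6 were higher and 4 lower, 2 were at least 2-fold higher, and the median was 0.17, below the 0.31 of all 65 such genes. The list thus does not stand above the other genes once this limit is applied. Of the 15, 1 was listed for ISC. Among the receptors, Tlr4 rose, as given above. Tlr2, which senses bacterial lipoproteins, was 2.11 in KO ISC and 3.40 in WT ISC, a difference of -1.29 that was not listed.

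Rsad2 and Ifit1, both induced by interferon, were below 0 in WT stem cells. Rsad2, which encodes the antiviral protein viperin, was 0.35 in KO ISC and -2.69 in WT ISC. Ifit1, an RNA-binding antiviral protein, was 1.00 in KO and -0.91 in WT. Slfn4, a Schlafen family gene of myeloid cells, was 3.84 in KO and 2.34 in WT, with 11.3% of its 50-mers shared with other transcripts. The difference of 3.04 for Rsad2 became 0.98 with the pseudocount, that of 1.91 for Ifit1 became 0.97, and the 2.83-fold higher Slfn4 was 1.34 on that scale. Chosen after their values were seen, Irf7, a transcription factor that drives interferon genes, was 4.03 and 3.23, and Apobec3, a cytidine deaminase that restricts retroviruses, was 5.78 and 6.64. Apobec3 was thus lower in KO by 0.87 on the log2 scale, against the direction of the other interferon-induced genes named here. Of those, Rsad2 and Ifit1 reached the value limit through KO alone, so their direction was fixed by it.

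The upstream sequences of Ifit1 (chr19:34640639-34640888, plus strand, GRCm38.p6) and Rsad2 (chr12:26456453-26456702, minus strand) are shown because they carry the letters of an interferon-stimulated response element. Each runs over the 250 bases before the RefSeq start, 5′ to 3′, with matches to TTTC, any 2 bases and TTTC in capitals. This motif was added after the values were seen.
Ifit1: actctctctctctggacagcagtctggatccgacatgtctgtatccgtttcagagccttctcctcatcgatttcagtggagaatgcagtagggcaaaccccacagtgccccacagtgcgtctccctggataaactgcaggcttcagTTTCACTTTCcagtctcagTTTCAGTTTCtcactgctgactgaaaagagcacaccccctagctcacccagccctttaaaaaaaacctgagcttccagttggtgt
Rsad2: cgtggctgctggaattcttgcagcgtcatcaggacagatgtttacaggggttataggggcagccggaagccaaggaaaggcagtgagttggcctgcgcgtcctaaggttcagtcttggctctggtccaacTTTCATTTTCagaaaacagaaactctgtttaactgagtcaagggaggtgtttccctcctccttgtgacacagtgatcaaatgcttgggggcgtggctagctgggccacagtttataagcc
Ifit1 held 2 matches and Rsad2 held 1. A match on either strand was present in 3.44% of all RefSeq windows and in 5 of the 67, or 7.46%. The 5 belonged to Apobec3, Ifit1, Plcd3, Rsad2 and Tmem140. Their differences in stem cells were -0.87, 1.91, -2.59, 3.04 and 0.15. The last is uncertain, since 35.9% of the 50-mers of Tmem140 occur elsewhere. Ifit1 and Rsad2 reached the value limit through KO alone and Plcd3 through WT alone, so the limit fixed the signs of their differences. No direction is therefore read from windows with the letters. Irf7 and Slfn4 had no match in their windows.

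The antigen presentation genes H2-Q1 and Cd74 were higher or close to equal in KO ISC. The lymphocyte genes Cd244 and Ptpn22 reached the value limit through KO alone, so they had to be higher. H2-Q1, an MHC class I gene, was 3.03 in KO ISC and 1.86 in WT ISC, and shares 15.0% of its 50-mers with other transcripts. Cd74, the invariant chain of MHC class II, was also named after its values were seen. It was 8.85 in KO and 8.67 in WT, so an abundant MHC class II partner differed by 0.19. Cd244, a receptor of natural killer and T cells, was 2.97 in KO and -0.56 in WT, a difference of 3.53. Ptpn22, a phosphatase of lymphocyte signalling, was 1.40 in KO and -0.13 in WT. Cd244 and Ptpn22 are immune cell markers as well, and the sort used no staining for CD45. With the pseudocount their differences were 2.40 and 0.93.

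All 4 antimicrobial and mucus genes with values, of 11 in the list, were higher in KO ISC, and their median was 1.06, or 0.64 on centring. Over all 73 genes, 76.7% were higher and 26.0% at least 2-fold higher, with a median of 0.42. Lyz1, Itln1 and Spink4 were listed for AE, where they were higher in KO, so they were picked in part by such a difference. Lyz1, the lysozyme of Paneth cells, was 10.9 in KO and 9.69 in WT, a difference of 1.20. It shares 16.1% of its 50-mers with other transcripts, most often of Lyz2. Itln1, a lectin of Paneth and goblet cells, was 10.7 in KO and 8.97 in WT, a difference of 1.72. Both were past 2-fold, and neither was listed for ISC, although Clca4b, with a difference of 0.83, was. Spink4, a goblet cell protease inhibitor named after its values were seen, was 8.31 and 7.40. These 3 genes are the Paneth and goblet cell markers summed above, so the list cannot be told apart from more such cells or RNA in the KO sorts.

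Of 3 metal binding genes, 2 had values. Beside Mt1, Trf, the iron carrier transferrin, was 3.34 in KO ISC and 3.25 in WT ISC. Trf shares 59.4% of its 50-mers with other transcripts.

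Wnt and BMP genes differed little apart from Bambi. The list named 6 genes, of which 4 had values, 2 higher and 2 lower in KO ISC, with a median of 0.04 that turned to -0.37 on centring. Bambi was past 2-fold and Ascl2 was the lowest of the 4, at -0.45. Among 5 genes of extracellular matrix and adhesion, 4 were among the 73, 2 higher and 2 lower, with a median of -0.39. Here Pxdn fell and Lama3 was 1.62 in KO and 0.60 in WT. Lama3 encodes a laminin chain that joins the chain of Lamb3 in the same epithelial laminin. Lamb3, named after its values were seen, was 5.39 and 6.27, so the genes of these partner chains differed in opposite directions, by 1.02 and -0.89.

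Genes of absorptive function differed about as the 73 genes did, of which 76.7% were higher with a median of 0.42. Of 10 solute and lipid transporters, 7 were among the 73, 6 of them higher in KO ISC and none past 2-fold, with a median of 0.29 that turned to -0.12 on centring. The list leaves out 2 solute carriers among the 73, Slc6a19, described below at 1.66, and Slc16a5, named after its value was seen, at 0.70. With both added, 8 of 9 were higher and 1 was past 2-fold, with a median of 0.45. Within the list, Clic5, an intracellular chloride channel protein of microvilli, was the highest at 5.79 in KO and 4.95 in WT. Slc1a3, a glutamate transporter, was the lowest at 5.04 in KO and 5.88 in WT. Of 8 genes of xenobiotic and fatty acid metabolism, 6 had values, 5 higher and 1 lower, with a median of 0.62, or 0.20 on centring. Gsta3, a glutathione transferase, was 2.37 in KO and 0.94 in WT, the one gene of the 6 past 2-fold. Cyp2s1, a cytochrome P450, was 5.37 and 5.39, so it was equal in both to within 0.1. Of 8 apical membrane genes, 4 were among the 73, and these 4 were higher with a median of 0.48, or 0.064 on centring. Their differences ran from 0.85 for Clic5 to 0.15 for Slc9a2, a sodium and proton exchanger. Pdzd7 and Mal of the apical list were under 0 in both ISC groups and lower in KO, with differences of -1.46 and -0.59. Clic5 and Slc9a2 stand in both lists. No gene of these 3 lists was listed for ISC.

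The genes best known outside the gut were grouped with earlier results of these data known, so their direction is no independent evidence. Of 8 genes, 5 were among the 73, all higher in KO ISC and 4 past 2-fold, beside 76.7% and 26.0% over the 73. Of the 4, Bglap3 and Rtn4r reached the value limit through KO alone and had to be higher. The median was 1.82, or 1.41 with the pseudocount and 1.40 on centring. Besides Bglap3, Aplp1, which encodes a neuronal relative of the amyloid precursor protein, was 5.06 in KO and 2.39 in WT, a difference of 2.68. Pmp22, peripheral myelin protein, was 2.76 and 0.95. Rtn4r, the Nogo receptor of neurons, was 1.12 and -0.08. Mapre3, which binds the growing ends of microtubules, was 0.65 and 0.47.

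**Figure D2:**
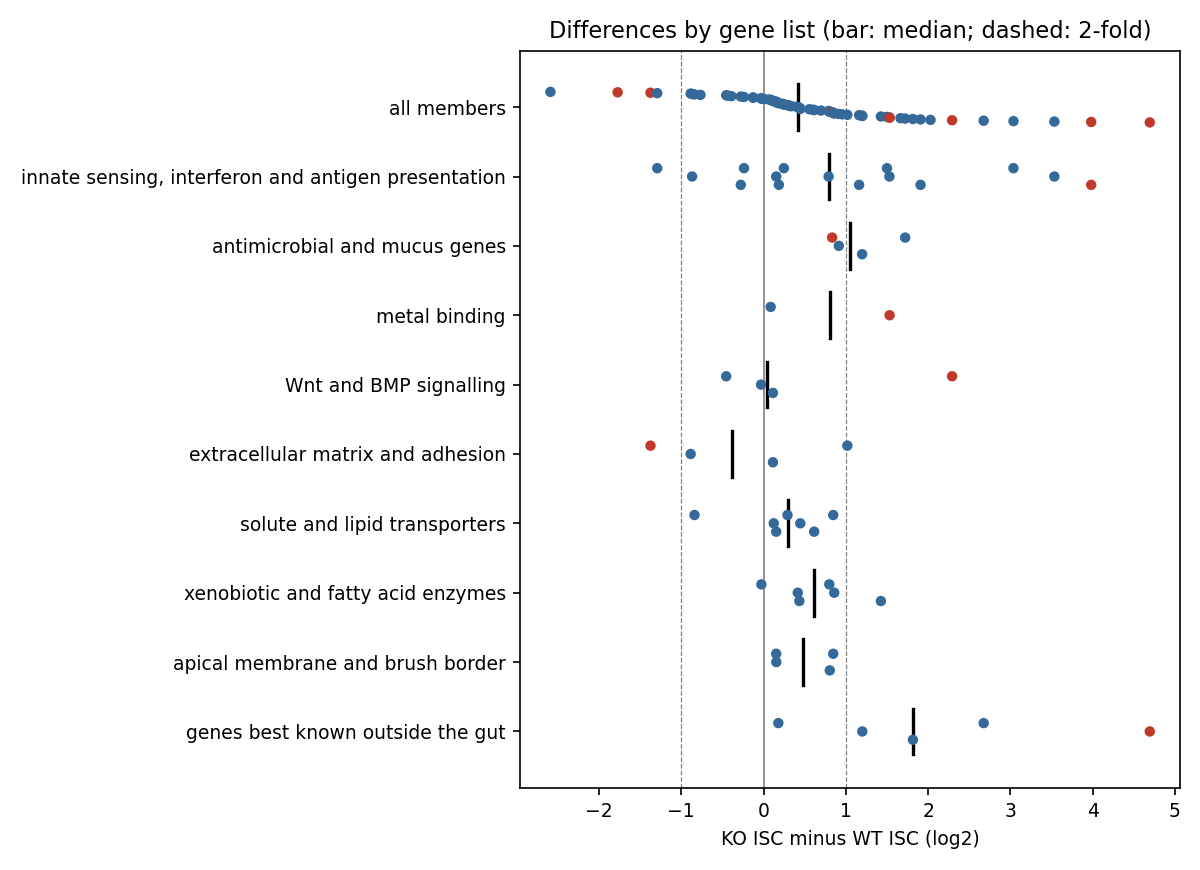
Difference KO ISC minus WT ISC (log2, horizontal axis) of each gene, for all 73 genes and for the 9 gene lists. Points are genes, red where listed for ISC, black bars are medians, the grey line is 0 and the dashed lines mark 2-fold. The 15 innate genes spread from -1.29 to 3.98, and the 4 antimicrobial and mucus genes lie between 0.83 and 1.72.

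Of the 73 genes, 25 were in no list, 18 of them higher in KO ISC, and their median was 0.31. Plcd3, a phospholipase C, had the lowest difference of all, at -1.95 in KO and 0.64 in WT, or -1.02 with the pseudocount. It reached the value limit through WT alone and so had to be lower in KO. Slc6a19, the main neutral amino acid transporter of the enterocyte brush border, was 4.61 in KO and 2.94 in WT, a difference of 1.66. AC151971.2, a lincRNA, was 2.27 and 0.24. None of these 3 was listed for ISC.

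Next, the differences were set beside the contrast of villus enterocytes with crypt cells in WT mice, taken as WT AE minus WT TA. The AE sort used Epcam, CD31 and CD45 staining and the TA sort did not, so the gap holds that difference too. This gap uses no ISC value, but TA and ISC were sorted at the same time from crypt suspensions. The gap and the ISC difference are therefore not separate measures. Over all 73 genes, 76.7% were higher in KO ISC and the median difference was 0.42. Of 19 genes with a gap under 0, 7 were higher in KO ISC and the median difference was -0.13. Of 24 genes with a gap of 0 to 2, 21 were higher, with a median of 0.24. Of 30 genes with a gap of 2 or more, 28 were higher, with a median of 0.74. Genes that were higher in villus enterocytes than in transit amplifying cells thus had the higher differences. Beside this, the 6 enterocyte markers that reached the value limit summed to 8.65 in KO ISC against 7.95 in WT ISC. The part of enterocyte RNA was not tested. With both ISC values at least 0, the medians were -0.13, 0.17 and 0.65 over 19, 20 and 26 genes. Of the genes with a gap under 0, 4 were past 2-fold higher all the same: Lyz1, Itln1, Mt1 and AC151971.2. Of those with a gap of 2 or more, 2 were lower, Plcd3 and, named after its value was seen, 4930539E08Rik at -0.39. Plcd3 had to be lower, since it entered through WT ISC alone. A similar split of the TA differences by WT AE minus WT ISC gave medians of 0.02, 0.12 and 0.28 over 22, 17 and 34 genes.

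**Figure D3:**
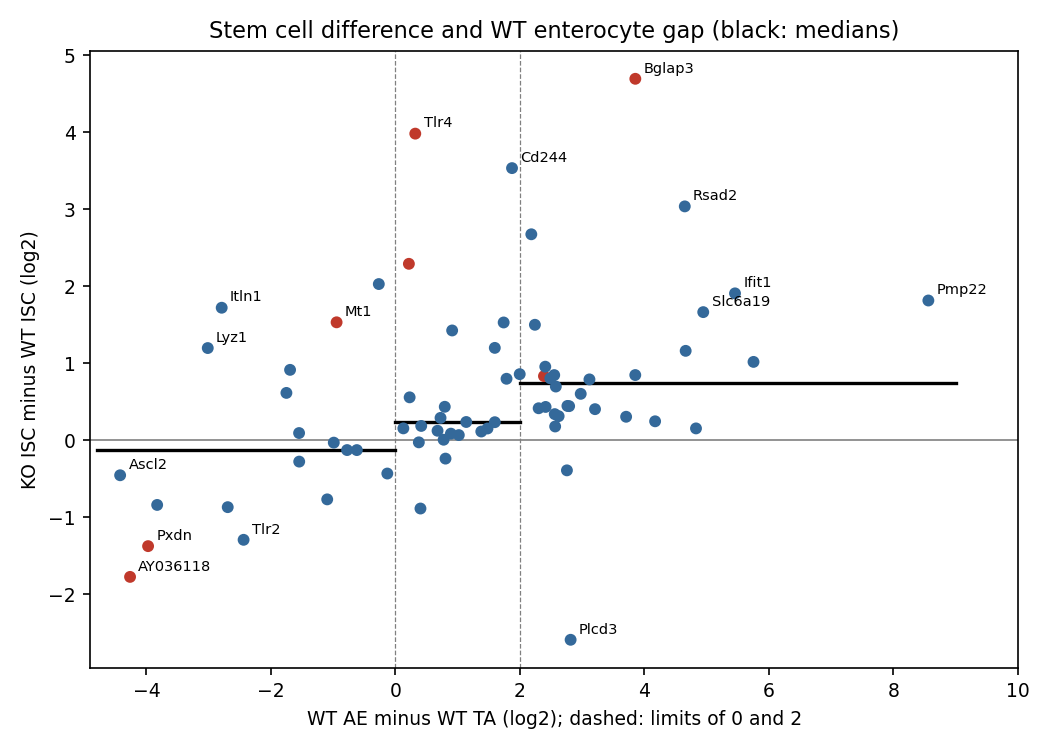
Difference KO ISC minus WT ISC (log2, vertical axis) against WT AE minus WT TA (log2, horizontal axis) for 73 genes. Red points were listed for ISC, dashed lines mark gaps of 0 and 2, and black lines are the medians of -0.13, 0.24 and 0.74 in the 3 ranges.

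In TA, AE and CO the 73 genes had medians of 0.16, -0.14 and -0.77, with 51, 26 and 23 genes higher in KO. At least 2-fold in either direction were 20.5%, 20.5% and 49.3%, against 31.5% in ISC. The genes were picked from the tables of all 4 populations, most of them from that of CO, and ISC and TA were sorted at the same time from crypt suspensions, so the ISC and TA values are not from separate preparations. They are therefore given side by side. Differences follow in the order ISC, TA, AE and CO. Mt1 differed by 1.53, 1.36, 3.23 and 2.01. Bambi differed by 2.29, 1.75, 0.26 and 2.30, and Lyz1 by 1.20, 1.64, 2.11 and 3.20. These genes were higher in KO in all 4. Tlr2 was lower in all 4, at -1.29, -1.55, -0.60 and -0.93.

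Other genes had differences of opposite sign. Ifit1 differed by 1.91, -0.36, -0.87 and -2.36. Rsad2 differed by 3.04, 0.96, -0.40 and -2.59, and H2-Q1 by 1.16, 0.75, -0.16 and -3.57. These 3 interferon and MHC class I genes were thus higher in KO ISC and lower in KO CO. Of these, Ifit1 and Rsad2 reached the value limit through KO ISC alone and had to be higher there, as did Cd244 below. Rsad2 and H2-Q1 were listed for CO alone, so they were picked by their CO difference. Lama3 differed by 1.02, 0.34, -0.79 and -2.38, and Pmp22 by 1.82, 3.31, -0.85 and -2.09. In the reverse order, Pxdn differed by -1.37, -0.59, 0.29 and 1.30. Cd244 differed by 3.53, 3.39 and -1.50 in the small intestinal populations, and was below -5 on the log2 scale in both CO groups, where it is close to the lowest values of the tables. Whether these differences were themselves unlike between populations was not tested, since only group means were at hand.

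**Figure D4:**
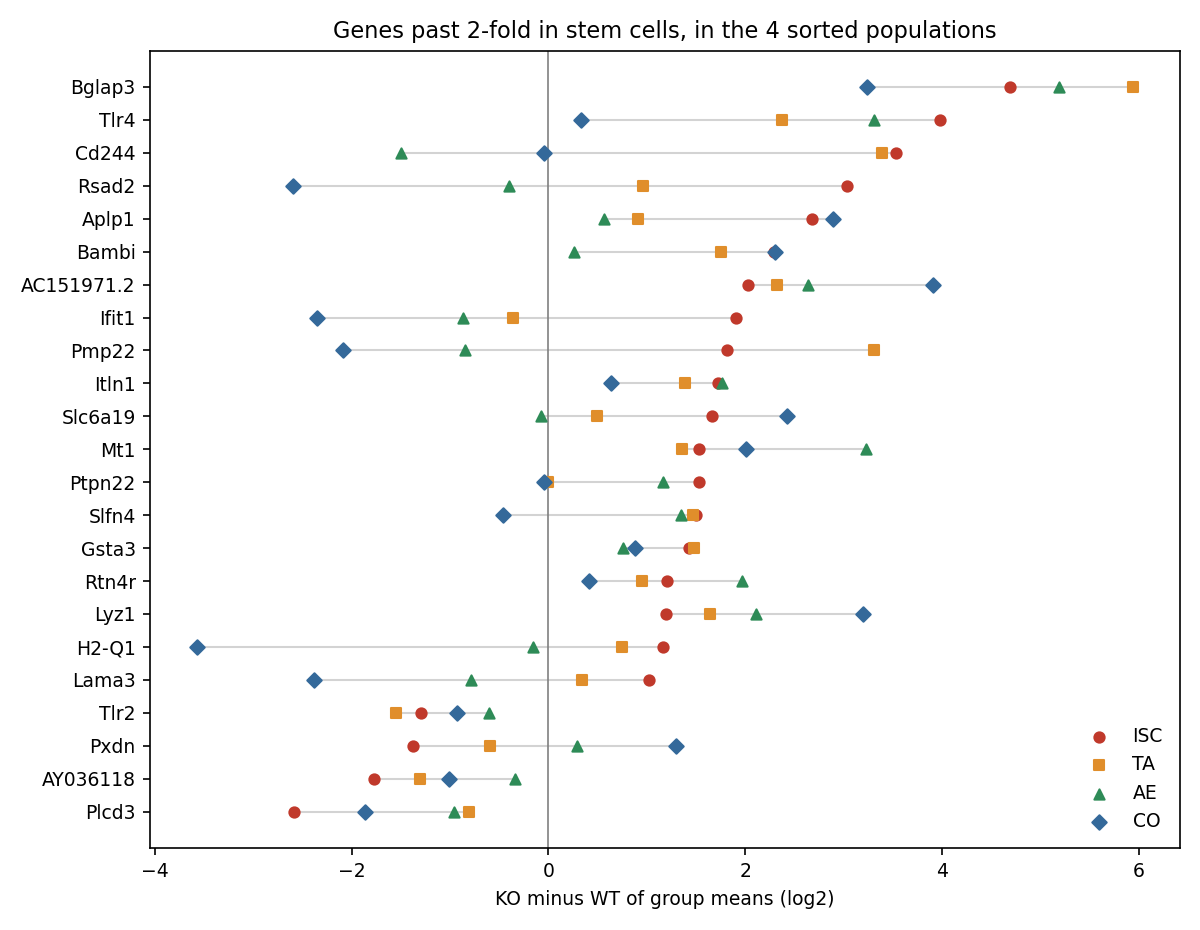
Difference KO minus WT (log2, horizontal axis) in the 4 sorted populations for the 23 genes at least 2-fold higher or lower in KO ISC. Each row is a gene and each marker a population, joined by a grey line. Mt1, Bambi and Bglap3 lie above 0 in all 4, whereas Ifit1, Rsad2, H2-Q1, Lama3 and Pmp22 lie above 0 in ISC and below 0 in AE and CO. Among these, Bglap3, Ifit1 and Rsad2 entered through their KO ISC value alone, so they had to lie above 0 in ISC.

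The value limit left out 9 genes: Abca12, Khdc1a, Mal, Mctp1, Meg3, Nt5e, Pcdh17, Pdzd7 and Tat, named here to account for all 82. They had values under 0 in both ISC groups and differences from -1.83 to 4.37. Rsad2, at 0.35 in KO, lay just inside the limit. Khdc1a, at -0.16 in KO and -4.53 in WT, lay just outside it, and shares 43.5% of its 50-mers with other transcripts.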

How the data were processed

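mRNA was sequenced from sorted cells, with 6 ISC libraries, by a directional poly(A) protocol with 15 PCR cycles and single reads of 50 bp. The RNA input was 10 ng per the labels, but the methods of the study give a range of inputs down to lower amounts, and that of each library is not known. The authors trimmed reads with Trim Galore 0.4.4, aligned them to GRCm38 with HISAT2 2.1.0, counted them over merged exons in SeqMonk and ran DESeq2. Whether counting used strand was not stated. The authors deposited log2 values, each the mean of a group of reads normalised to total reads, and an FDR column that holds the adjusted p-value of their own comparison, which was not used beyond which genes each table lists. Whether the log was taken before the mean was not stated. Depth is unknown.

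Groups were taken from the sample labels. The difference KO minus WT of these means was computed with Python 3.11.15, numpy 2.4.6 and pandas 2.3.3 and plotted with matplotlib 3.10.9. The summary counts and the motif search were checked on a few made-up values and short strings of bases. No data were simulated. A summed level is the log2 of the sum of linear values. No test was possible. Genes, lists, markers and limits were chosen with earlier results of these data known. Named were Smarcad1, all genes listed for ISC, all with a difference of at least 1, the highest and lowest of each list, and those at the value limit, 33 genes in all. Of the 82 genes, 74 matched GENCODE M21 by coordinates and symbol, 2 by coordinates with another symbol and 6 by symbol. The share of each gene's 50-mers found in other transcripts was counted, and 11 of the 73 genes shared at least 10%. Upstream windows came from RefSeq.

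The alternatives were a pseudocount of 1, values raised to 0.1, centring on the median of the 73 genes, a value limit of 2, no limit, other gap limits, and leaving out genes. A limit of 0 on both values was added after seeing the data.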

Additional observations from a re-analysis of the deposited data

How the results depend on the processing

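Neither SD nor test can be had from group means, so no difference above was set against the spread between libraries. Leaving out each replicate in turn was not run for that reason. No paired analysis was possible because the tables hold group means and no value per library. Low genes depend most on how they are treated, and a list chosen by significance overstates sizes.

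The medians of all genes, of the 9 lists and of the gap ranges kept their sign with the pseudocount. Centring on the median left 36 genes higher, 36 lower and 8 at least 2-fold lower in KO ISC. It gave list medians of 0.37 for innate genes, 0.64 for antimicrobial and mucus genes, -0.37 for Wnt and BMP, -0.80 for matrix, -0.12 for transporters, 0.20 for xenobiotic and fatty acid enzymes, 0.064 for apical genes and 1.40 for genes best known outside the gut, by construction. Without genes that only the CO table lists, 22 genes were higher and 10 lower, with a median of 0.97. Without the genes listed for ISC, 2 genes were at least 2-fold lower. With both values at least 0, chosen after seeing the data, 12 genes were at least 2-fold higher, the median was 0.31, and that of the innate genes was 0.17. For the gap of 0 to 2, the median was 0.44 with the gap taken against WT ISC. For a gap of 2 or more it was 0.63 with the pseudocount, which also gave 1.41 for genes best known outside the gut. With a single gap limit of 1, the genes under it had a median of 0.087. Of the 32 named genes with a value of at least 0, the pseudocount moved 18 by 0.1 or more, and raising values to 0.1 moved 0.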
